A study of Homo sapiens with 9 samples.

Results

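The cell cycle and DNA replication genes described here were 52 genes, taken by symbol from the 60606 genes of an RNA-seq table of U87 cells, GSCs and Diff cells. They were sorted by their known role into 12 genes of G1 and its inhibitors, 16 genes of DNA replication and S phase, and 24 genes of mitosis. Of the 52 genes, 48 had a mean above 1 TPM over the 9 libraries and were tested (9 of G1, 16 of S phase, 23 of mitosis). CCND2, CDKN1C, CDKN2C and NUSAP1 were not. TPM is the share of a gene among all transcripts of a library, after division by gene length, scaled so that each library sums to 1000000.

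All 3 lines of the study derive from U87, an established cell line grown from a human glioblastoma. The wild-type U87 cells, for which no irradiation is stated, grew in DMEM with fetal bovine serum. The GSCs are glioblastoma stem cells held in serum-free stem cell medium with B27, EGF and bFGF and irradiated repeatedly until radioresistant. The Diff cells were obtained from these GSCs in DMEM with serum and grown on from selected clonal communities. Diff cells and U87 therefore shared serum, while Diff cells and GSCs shared the irradiation. GSCs differed from U87 in irradiation and medium at the same time, so these cannot be told apart. Diff cells had also passed through stem cell medium, differentiation and selection of clonal communities. Neither comparison with Diff cells therefore isolates irradiation or serum. There were 3 libraries per line, and nothing states that they came from separate cultures. The p-values thus measure the spread between these libraries, which may be technical. The sample records describe removal of ribosomal RNA and directional libraries, whereas the study's methods describe oligo(dT) enrichment.

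The table does not keep sequencing depth. Mitochondrial transcripts made up 25.9% to 31.8% of each library, and RN7SL1, the RNA of the signal recognition particle, made up 5.73% to 9.79%. Within a line, libraries correlated at 0.956 to 0.971 (Pearson's r on the log2 scale, across 22909 genes, which are not independent replicates). The stem cell markers PROM1 and SOX2 stayed under 1 TPM in every library, GSCs included, although GSCs held 0.379 to 0.596 TPM of PROM1 and U87 0.121 to 0.238. FABP7, a fatty acid binding protein of neural progenitors, was at 4.38 to 5.82 TPM in GSCs and at most 0.986 in U87. NES, which encodes the progenitor filament nestin, went the other way, from a mean of 33.0 TPM in U87 to 22.6 in GSCs (log2 difference -0.53 ± 0.08 (SE), adjusted p = 0.00047 by limma), and CD44 and OLIG2 did not pass between these lines (adjusted p = 0.41 and 0.225). The 7 stem cell markers summed to 441 to 511 TPM in GSCs, 430.2 to 456 in U87 and 308 to 324 in Diff cells. This sum was made mostly of CD44, with means of 427, 405 and 296 TPM in the same order. KRT5 and KRT14, keratins of epithelia, stood at 5.54 and 6.03 TPM in Diff replicate 1 and at most 0.0661 in every other library. EPCAM, the epithelial marker that passed the filter, was at 0.908 TPM in that library and 1.04 to 1.96 in the others. The neuronal markers summed to 26.5 to 27.5 TPM in Diff cells, 10.2 to 13.7 in U87 and 12.7 to 13.2 in GSCs. Most of this was MAP2, a microtubule protein of neurons, at a mean of 21.7 TPM in Diff cells. MAP2 was higher in Diff cells by a log2 difference of 1.35 ± 0.11 from U87 and 1.30 ± 0.11 from GSCs (adjusted p = 2.01e-05 and 4.7e-05). TUBB3, the other neuronal marker that passed the filter, passed the test in no comparison (in Diff cells, adjusted p = 0.0622 against U87 and 0.516 against GSCs). The summed TPM of the endothelial markers KDR, VWF, PECAM1 and CDH5 was 32.8 to 37.9 in GSCs, 12.4 to 16.2 in Diff cells and 8.75 to 10 in U87. Of the immune markers, PTPRC and CD3E were at or near 0. CD68, the immune marker that passed the filter, had means of 2.48 TPM in U87, 2.28 in GSCs and 2.25 in Diff cells. The part of these markers in the results was not tested.

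A dividing cell leaves G1 when cyclin D with CDK4 or CDK6, and then cyclin E with CDK2, phosphorylate the retinoblastoma protein RB1. This frees E2F factors, which switch on the genes that license and copy DNA. The MuvB complex, as part of DREAM, holds the genes of G2 and mitosis down early in the cycle. Later, MuvB with MYBL2 and FOXM1 switches these genes on, and their transcripts peak shortly before division. In a bulk sample of unsynchronised cells, transcript levels average over all phases, and fewer cells in a phase and less RNA per cell cannot be told apart. In tumors, transcripts such as MKI67 and TOP2A are read as proliferation markers.

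The S phase and mitosis genes carry different sequence elements in their promoters, and a few of them are shown because the results below are given by the same classes. Promoters were taken from RefSeq (GRCh38.p14) as 300 bases, from 250 before to 50 after the start of a transcript, and written 5′ to 3′ on the strand of the gene. Of the 52 genes, 39 matched a promoter. Capitals mark matches, on either strand, to E2F elements (TTTCCCGC, TTTCGCGC, TTTGCCGC or TTTGGCGC), to the cell cycle homology region or CHR (TTTGAA) and to the CCAAT box (CCAAT). On the opposite strand CHR reads TTCAAA and the CCAAT box ATTGG. The promoters of 4 mitosis genes were PLK1 (chr16:23678639-23678938, forward strand), CDC20 (chr1:43358731-43359030, forward strand), CCNB2 (chr15:59104896-59105195, forward strand) and MKI67 (chr10:128126374-128126673, reverse strand).
PLK1: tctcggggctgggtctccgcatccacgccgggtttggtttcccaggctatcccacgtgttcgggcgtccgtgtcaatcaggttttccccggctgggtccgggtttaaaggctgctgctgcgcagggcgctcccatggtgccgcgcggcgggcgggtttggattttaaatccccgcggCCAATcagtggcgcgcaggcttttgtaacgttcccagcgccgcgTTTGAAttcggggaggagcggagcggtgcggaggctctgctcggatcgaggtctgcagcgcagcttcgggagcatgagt
CDC20: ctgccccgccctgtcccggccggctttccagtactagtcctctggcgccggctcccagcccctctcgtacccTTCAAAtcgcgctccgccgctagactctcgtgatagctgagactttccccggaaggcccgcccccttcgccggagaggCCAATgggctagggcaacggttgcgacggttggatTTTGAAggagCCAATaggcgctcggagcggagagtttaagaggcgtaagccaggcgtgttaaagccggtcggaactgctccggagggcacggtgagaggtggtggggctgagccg
CCNB2: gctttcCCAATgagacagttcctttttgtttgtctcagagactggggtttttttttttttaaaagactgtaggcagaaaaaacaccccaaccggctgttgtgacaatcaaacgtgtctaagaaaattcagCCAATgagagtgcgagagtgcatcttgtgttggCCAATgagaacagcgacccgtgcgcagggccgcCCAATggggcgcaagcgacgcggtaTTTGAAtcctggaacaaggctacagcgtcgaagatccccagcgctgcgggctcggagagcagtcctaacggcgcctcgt
MKI67: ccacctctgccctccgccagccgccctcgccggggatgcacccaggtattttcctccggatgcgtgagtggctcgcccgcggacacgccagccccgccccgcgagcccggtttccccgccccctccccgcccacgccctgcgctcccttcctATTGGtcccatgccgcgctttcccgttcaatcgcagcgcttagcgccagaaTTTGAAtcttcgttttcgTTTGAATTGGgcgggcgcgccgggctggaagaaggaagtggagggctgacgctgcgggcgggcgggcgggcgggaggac
Each of the 4 holds CHR and CCAAT, and none holds an E2F element of the searched spelling. In MKI67, a CHR and a CCAAT box share letters.

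The promoters of 3 S phase genes were MCM2 (chr3:127598161-127598460, forward strand), CDC6 (chr17:40287629-40287928, forward strand) and PCNA (chr20:5126573-5126872, reverse strand, the upstream one of its promoters).
MCM2: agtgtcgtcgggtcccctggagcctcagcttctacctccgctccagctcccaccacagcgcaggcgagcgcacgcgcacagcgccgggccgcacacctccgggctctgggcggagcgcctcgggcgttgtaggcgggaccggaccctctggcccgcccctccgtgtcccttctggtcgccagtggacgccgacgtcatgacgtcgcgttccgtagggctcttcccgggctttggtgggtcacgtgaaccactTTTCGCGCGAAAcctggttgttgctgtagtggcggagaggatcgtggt
CDC6: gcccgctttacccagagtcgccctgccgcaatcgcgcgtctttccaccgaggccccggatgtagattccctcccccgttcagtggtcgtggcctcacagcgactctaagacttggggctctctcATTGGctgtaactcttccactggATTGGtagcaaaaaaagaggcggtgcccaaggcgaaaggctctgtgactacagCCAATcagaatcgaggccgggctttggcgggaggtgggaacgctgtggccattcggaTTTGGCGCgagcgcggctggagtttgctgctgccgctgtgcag
PCNA: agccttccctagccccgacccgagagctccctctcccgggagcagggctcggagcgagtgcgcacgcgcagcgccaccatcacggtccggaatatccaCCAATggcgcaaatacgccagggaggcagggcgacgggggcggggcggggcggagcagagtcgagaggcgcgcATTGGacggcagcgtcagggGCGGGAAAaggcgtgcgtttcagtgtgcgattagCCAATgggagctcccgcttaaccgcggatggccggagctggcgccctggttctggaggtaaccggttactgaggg
Each of the 3 holds an E2F element, and none holds CHR. In MCM2 the capitals are a pair of overlapping E2F elements on opposite strands. Counted by gene, an E2F element was found in 11 of 14 S phase genes (78.6%), 3 of 18 mitosis genes (16.7%) and 0 of 7 G1 genes, against 3.99% of 27305 genes with a promoter. CHR was found in 11 of 18 mitosis genes (61.1%), 0 of 14 S phase genes and 0 of 7 G1 genes, against 18.2% of all genes. CCAAT stood in 15 of 18, 10 of 14 and 3 of 7, against 39.7%. CHR and CCAAT were found together in 10 of 18 mitosis genes (55.6%), against 7.26% of all genes. Counted by promoter rather than by gene, the shares over 35116 windows were 3.31% for E2F, 15.2% for CHR and 34.6% for CCAAT. The only window of RB1 (chr13:48476200-48476499) lies within the gene, which spans 48303726 to 48599436, so its annotated start was not searched. A match describes these letters only, and no binding was measured.

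The mitosis genes followed an order, U87 above Diff cells above GSCs, that the S phase genes did not follow. The summed TPM of the 24 mitosis genes was 2974 ± 152 (SD, n = 3) in U87, 2147 ± 66.2 in Diff cells and 1219 ± 61.8 in GSCs. The 16 S phase genes summed to 1132 ± 47.0 in U87, 1193 ± 29.5 in Diff cells and 1133 ± 64.0 in GSCs. The 12 G1 genes summed to 574 ± 25.7 in U87, 432 ± 4.61 in Diff cells and 585 ± 19.2 in GSCs, a sum made mostly of CCND1. The S phase sums of the 3 lines overlapped, whereas the mitosis sums did not. The ratio of mitosis to S phase TPM in each library was 2.59, 2.59 and 2.70 in U87, 1.82, 1.74 and 1.84 in Diff cells and 1.07, 0.993 and 1.18 in GSCs. This ratio needs no scaling between libraries, and no library of a line overlapped with those of another line.

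**Figure D1:**
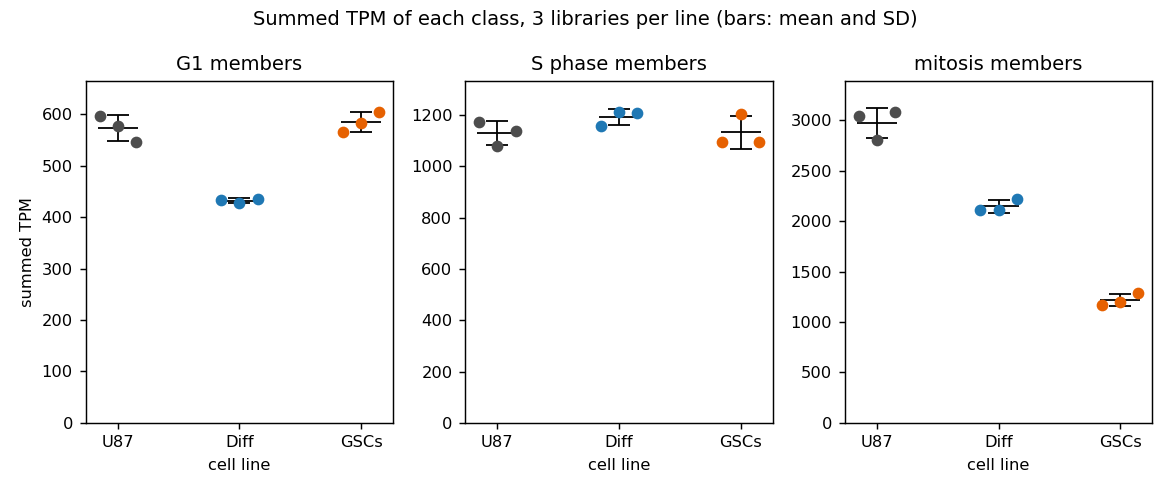
Summed TPM of the genes of G1, S phase and mitosis in each of the 9 libraries (points) with the mean and SD of each line (n = 3). The mitosis sums step down from U87 (mean 2974) to Diff cells (2147) and GSCs (1219), whereas the S phase sums lie near 1132, 1193 and 1133.

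The 3 lines were compared with limma on log2(TPM + 1), in a common model of the 9 libraries, with Benjamini-Hochberg adjustment over all 22909 genes tested in each comparison. A gene passed the test at an adjusted p under 0.05, and passed the fold limit if the log2 difference also exceeded 1. Both comparisons with U87 use the same 3 U87 libraries. In GSCs against U87, 37 of the 48 tested genes passed, where 48.6% of all tested genes did. Of these, 29 fell and 8 rose, against 23.3% and 25.3% of all genes. The fold limit was passed by 16 genes downwards (7.53% of all genes) and 0 upwards (9.52%). In Diff cells against U87, 29 passed (39.4% of all genes), of which 21 fell (20.5%) and 8 rose (18.9%). None passed the fold limit, which 6.36% of all genes passed downwards and 5.92% upwards. Between Diff cells and GSCs, 31 passed (34.8% of all genes). Diff cells were above GSCs in 28 (15.0%) and below in 3 (19.8%), and the fold limit was passed by 7 upwards (2.66%) and 0 downwards (5.36%). The libraries of the compared lines did not overlap for 37 genes in GSCs against U87 (55.8% of all genes), 40 in Diff cells against U87 (55.2%) and 33 between Diff cells and GSCs (46.7%). Without Diff replicate 1, the library with keratin transcripts, 20 genes fell and 6 rose in Diff cells against U87, and Diff cells were above GSCs in 27 and below in 2. Without U87 replicate 3, the 8 genes that rose in GSCs became 4.

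The 3 classes contributed unequally. Over all genes tested, 25.3% rose and 23.3% fell in GSCs against U87, and 18.9% rose and 20.5% fell in Diff cells against U87. Diff cells were above GSCs in 15.0% of all genes and below in 19.8%. Of the 23 tested mitosis genes, 22 fell and 0 rose in GSCs against U87, 14 fell and 0 rose in Diff cells against U87, and Diff cells were above GSCs in 20 and below in 0. The median log2 difference of the mitosis genes was -1.23, -0.36 and 0.82 in these comparisons, beside 0.02, -0.04 and -0.06 over all genes tested. Of the 16 S phase genes, 7 rose and 4 fell in GSCs against U87, 6 rose and 2 fell in Diff cells against U87, and Diff cells were above GSCs in 4 and below in 1, with medians of 0.09, 0.05 and 0.03. Of the 9 tested G1 genes, 1 rose and 3 fell in GSCs against U87, 2 rose and 5 fell in Diff cells against U87, and Diff cells were above GSCs in 4 and below in 2. Their medians were -0.17, -0.35 and -0.12. The S phase genes that fell in GSCs were near the share of all genes. So were the G1 genes that rose in Diff cells against U87 and those lower in Diff cells than in GSCs. The libraries of the 3 lines did not overlap and stood in the order U87, Diff cells, GSCs from high to low for 16 of 23 mitosis genes, 3 of 16 S phase genes and 2 of 9 G1 genes. Of all genes tested, 5.46% did so.

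**Figure D2:**
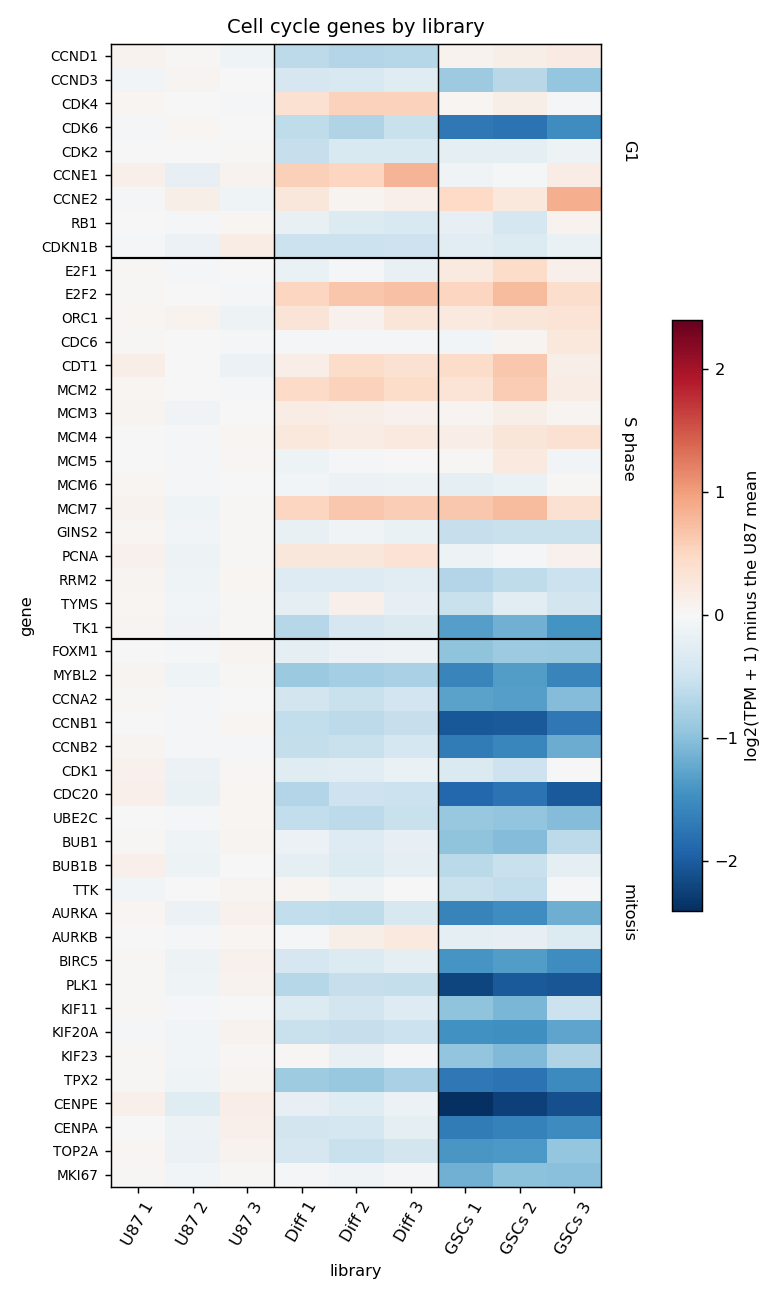
Levels of the 48 tested genes (rows, by class) in the 9 libraries (columns) as log2(TPM + 1) minus the U87 mean of the gene, with higher values in red and lower ones in blue. Most mitosis rows are bluer in Diff cells than in U87 and bluest in GSCs, while G1 and S phase rows hold both colors.

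Among the G1 genes, CCND1, which encodes cyclin D1, the partner of CDK4 and CDK6, was the most abundant. Its TPM was 409.6, 393 and 358 in U87, 251, 236 and 238 in Diff cells and 411, 427 and 441 in GSCs. The 3 Diff libraries lay far under all others, and GSCs lay just above U87. The log2 difference was -0.67 ± 0.06 (SE) in Diff cells against U87 (adjusted p = 3.58e-05) and -0.82 ± 0.06 against GSCs (adjusted p = 2.34e-05). In GSCs against U87 it was 0.14 ± 0.06 and missed the threshold (adjusted p = 0.0827), with an interval of 2 SE from 0.02 to 0.26. CCND1 supplied 95.5% to 98.5% of the summed TPM of the D-type cyclins in every library. CCND2, encoding cyclin D2, never exceeded 0.102 TPM.

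CCND3, encoding cyclin D3, followed the order of the mitosis genes at a low level. It stood at 13.3, 14.5 and 13.8 TPM in U87, 10.2, 10.5 and 11.1 in Diff cells and 7.11, 8.33 and 6.79 in GSCs, with no overlap between lines. The log2 difference from U87 was -0.35 ± 0.09 in Diff cells (adjusted p = 0.0132) and -0.83 ± 0.09 in GSCs (adjusted p = 8.74e-05).

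CDK6 and CDK4, the kinases that cyclin D activates, did not move together. CDK6 was at 26.6, 28.4 and 27.6 TPM in U87, 17.7, 16.2 and 18.8 in Diff cells and 7.72, 7.38 and 9.11 in GSCs. GSCs were lowest without overlap, 3.41-fold below U87 on mean TPM. The log2 difference of CDK6 was -1.66 ± 0.09 in GSCs (adjusted p = 1.27e-06) and -0.62 ± 0.09 in Diff cells (adjusted p = 0.000654) against U87. CDK4 was at 68.3, 65.9 and 64.7 TPM in U87, 86.0, 97.7 and 97.6 in Diff cells and 68.2, 72.9 and 63.8 in GSCs. Diff cells were above both other lines in each library. CDK4 rose by a log2 difference of 0.49 ± 0.07 in Diff cells against U87 (adjusted p = 0.000547), and that in GSCs was 0.04 ± 0.07 (adjusted p = 0.659, interval of 2 SE from -0.10 to 0.18). The ratio of CDK4 to CDK6 TPM was 2.57, 2.32 and 2.35 in U87, 4.85, 6.01 and 5.19 in Diff cells and 8.84, 9.87 and 7.0 in GSCs. The 24 nearest tested neighbours of CDK6 on chromosome 7 had median log2 differences from U87 of 0.28 in GSCs and 0.36 in Diff cells. In CDK4, 43.21% of exon bases lie opposite TSPAN31, whose reads cannot be told from its own if strand was not used in counting.

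**Figure D3:**
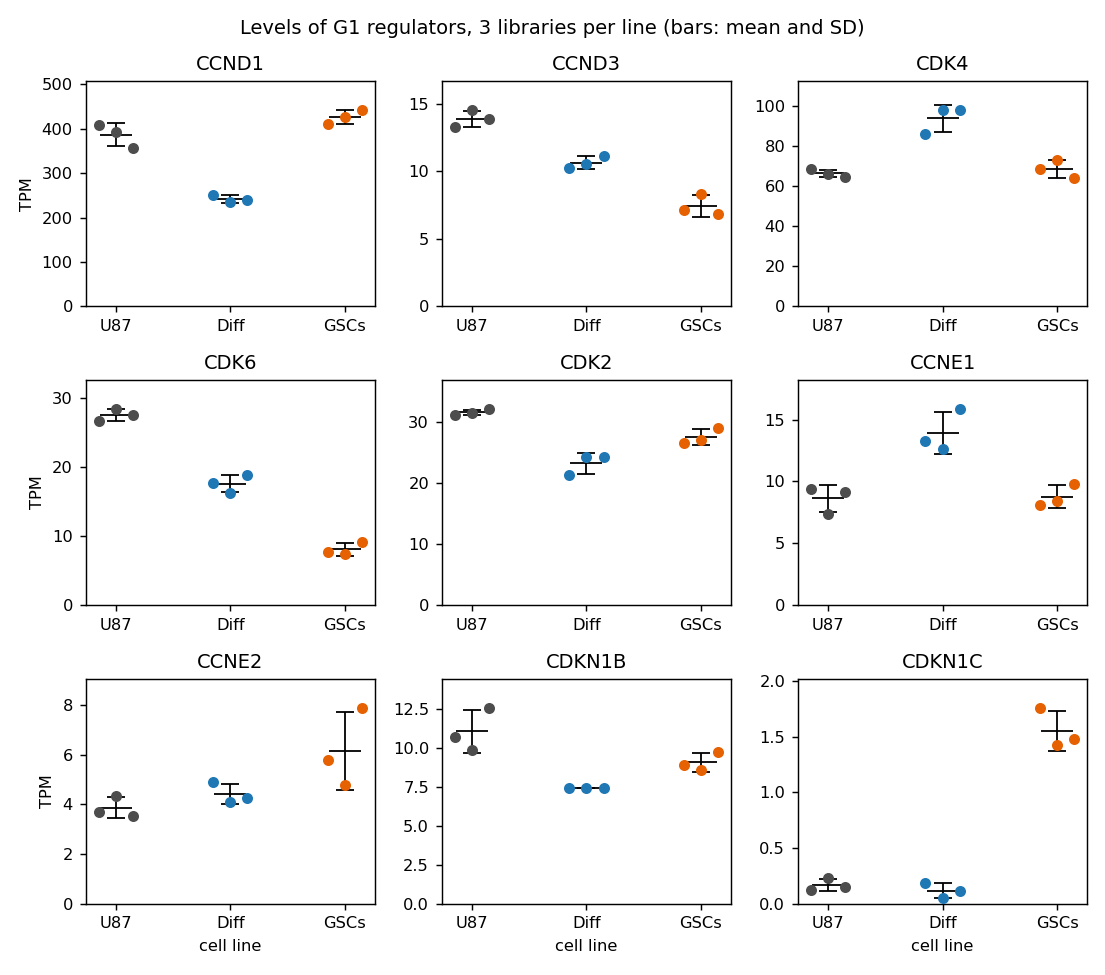
TPM of 9 G1 genes (a panel each, with an axis from 0) in each library (points) with the mean and SD of each line (n = 3). CDK6 stands at 26.6 to 28.4 in U87 and 7.38 to 9.11 in GSCs, CDK4 is highest in Diff cells at 86.0 to 97.7, and CDKN1C is above 1 TPM in GSCs only.

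CDK2 and its E-type cyclins, which act after cyclin D, showed modest differences. CCNE1, encoding cyclin E1, was at 9.38, 7.38 and 9.16 TPM in U87, 13.3, 12.7 and 15.9 in Diff cells and 8.08, 8.45 and 9.81 in GSCs. Diff cells were higher than both other lines without overlap, by a log2 difference of 0.63 ± 0.12 from U87 (adjusted p = 0.00357) and 0.61 ± 0.12 from GSCs (adjusted p = 0.00542). CCNE2, encoding cyclin E2, rose instead in GSCs, from 3.54 to 4.33 TPM in U87 to 4.79 to 7.87 (log2 difference 0.54 ± 0.16, adjusted p = 0.0242). Without GSCs replicate 3, the highest library, that adjusted p was 0.0518. INTS8 and AC087752.4 lie opposite 37.14% of the exon bases of CCNE2, and INTS8 was at 21.7 TPM in GSCs replicate 3 and 13.5 to 17.4 in the other libraries. CDK2 was at 31.2 to 32.1 TPM in U87, 21.3 to 24.3 in Diff cells and 26.6 to 29 in GSCs, and fell in Diff cells (log2 difference from U87 -0.43 ± 0.07, adjusted p = 0.0011).

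The brakes on the G1 list, CDKN1B, RB1, CDKN1C and CDKN2C, gave few calls. The inhibitor genes CDKN1A and CDKN2D and the RB1 relatives RBL1 and RBL2 are not on that list. They passed the test against U87 in both irradiated lines and are described below with the further G1 genes. CDKN1B, encoding the inhibitor p27, stood at 10.7, 9.88 and 12.5 TPM in U87, 7.43, 7.44 and 7.45 in Diff cells and 8.90, 8.55 and 9.73 in GSCs. Its ranges did not overlap, and the log2 difference was -0.51 ± 0.10 in Diff cells (adjusted p = 0.00352) and -0.26 ± 0.10 in GSCs (adjusted p = 0.0614) against U87. RB1 was at 23.0 to 24.6 TPM in U87, 18.2 to 21.0 in Diff cells and 17.7 to 25.4 in GSCs, and passed the test in no comparison (adjusted p of 0.0826 and 0.262 against U87). CDKN1C, encoding the inhibitor p57, missed the filter. It was at 1.76, 1.42 and 1.48 TPM in GSCs, 0.122, 0.233 and 0.153 in U87 and 0.187, 0.0551 and 0.111 in Diff cells. GSCs were above all other libraries, and a fit with no filter on low values gave a log2 difference of 1.13 ± 0.08 from U87 (adjusted p = 0.000121). CDKN2C, encoding p18, did not exceed 0.137 TPM in any library.

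The S phase genes are led by E2F1 and E2F2, activators of the replication genes. E2F1 was at 101, 95.2 and 99.2 TPM in U87, 88.2, 94.7 and 87.3 in Diff cells and 117, 133 and 108 in GSCs. GSCs were highest without overlap, with a log2 difference of 0.27 ± 0.08 from U87 (adjusted p = 0.0183), while that of Diff cells from GSCs was -0.40 ± 0.08 (adjusted p = 0.00432). E2F2 stood lower, at 10.3, 10.2 and 9.88 TPM in U87, 15, 16.7 and 17.1 in Diff cells and 15, 17.9 and 13.9 in GSCs. Both irradiated lines exceeded U87 in each library, by 0.63 ± 0.10 in Diff cells (adjusted p = 0.001) and 0.57 ± 0.10 in GSCs (adjusted p = 0.0014).

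ORC1, CDC6 and CDT1 load the MCM helicase on DNA. ORC1 was at 20.9 to 24.3 TPM in U87, 24.8 to 28.5 in Diff cells and 27.1 to 28.9 in GSCs, and rose in both (log2 differences of 0.23 ± 0.08 and 0.28 ± 0.08, adjusted p = 0.0467 and 0.0178). The call of ORC1 in Diff cells was lost under 10 of 18 alternative settings of the processing (adjusted p of 0.0590 to 0.151). CDC6, whose promoter is printed above, was at 34.3 to 35.6 TPM in U87, 33.5 to 34.0 in Diff cells and 33.4 to 41.5 in GSCs. Its log2 differences from U87 were -0.04 ± 0.08 in Diff cells (interval of 2 SE from -0.19 to 0.11) and 0.08 ± 0.08 in GSCs (-0.07 to 0.23), and neither passed. CDT1 was at 42.5 to 52.6 TPM in U87, 52.9 to 63.9 in Diff cells and 51.9 to 74.2 in GSCs. It rose in GSCs by 0.41 ± 0.14 (adjusted p = 0.035) with overlapping libraries, and that call was lost under 8 of 18 alternative settings of the processing, among them leaving out GSCs replicate 2 (adjusted p = 0.105).

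The 6 MCM genes, MCM2 to MCM7, encode the ring of the replicative helicase. Their summed TPM was 549, 514 and 541 in U87, 616, 625 and 617 in Diff cells and 606, 663 and 597 in GSCs. Every library of the irradiated lines exceeded every U87 library. MCM7 had the largest log2 difference of the 6, and its TPM was 98.3, 86.1 and 94.8 TPM in U87, 133, 147 and 140.1 in Diff cells and 145, 157 and 119.6 in GSCs. Its log2 difference from U87 was 0.58 ± 0.10 in both Diff cells and GSCs (adjusted p = 0.00169 and 0.00129), and the median of its 24 tested neighbours on chromosome 7 was 0.35 and 0.52. MCM2 was at 44.7, 43.8 and 41.9 TPM in U87, 60.2, 63.8 and 59.6 in Diff cells and 54.5, 67.0 and 49.0 in GSCs. It rose by 0.48 ± 0.10 in Diff cells (adjusted p = 0.00512) and 0.37 ± 0.10 in GSCs (adjusted p = 0.0156). TPRA1 and AC023593.1 lie opposite 23.62% of the exon bases of MCM2, and TPRA1 was at 14.4 to 15.5 TPM in U87 and 24.9 to 33.3 in the irradiated lines. MCM4 rose by 0.22 ± 0.06 and 0.27 ± 0.06 (adjusted p = 0.0184 and 0.00505). MCM3, MCM5 and MCM6 passed the test in no comparison, with log2 differences from U87 between -0.11 and 0.14.

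PCNA, the sliding clamp of DNA polymerase, was at 123, 105 and 117 TPM in U87, 139, 139.7 and 146 in Diff cells and 105, 111 and 123 in GSCs. It was highest in Diff cells, by 0.30 ± 0.08 against U87 (adjusted p = 0.0129) and 0.32 ± 0.08 against GSCs (adjusted p = 0.0104). In GSCs against U87 the log2 difference was -0.03 ± 0.08, with an interval of 2 SE from -0.18 to 0.12. GINS2, a subunit of the GINS complex that joins the helicase, was at 13.3 to 14.5 TPM in U87, 12.3 to 13.2 in Diff cells and 9.29 to 9.42 in GSCs, and fell in GSCs (log2 difference from U87 -0.54 ± 0.07, adjusted p = 0.000234).

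The 3 enzymes of nucleotide supply on the list fell in GSCs. TK1, thymidine kinase, was at 175, 158 and 171 TPM in U87, 104, 126 and 132 in Diff cells and 66.3, 74.5 and 61.2 in GSCs. The lines did not overlap, and TK1 was the only S phase gene past the fold limit against U87, at -1.31 ± 0.10 in GSCs (adjusted p = 1.12e-05) beside -0.48 ± 0.10 in Diff cells (adjusted p = 0.00569). RRM2, a subunit of ribonucleotide reductase, was at 72.0, 64.2 and 71.5 TPM in U87, 55.7, 55.7 and 58.1 in Diff cells and 42.2, 44.7 and 48.2 in GSCs. It fell in both, with log2 differences of -0.61 ± 0.07 in GSCs (adjusted p = 9.3e-05) and -0.29 ± 0.07 in Diff cells (adjusted p = 0.00897). TYMS, thymidylate synthase, was at 16.1 to 17.6 TPM in U87 and 11.5 to 14.2 in GSCs, a log2 difference of -0.41 ± 0.11 (adjusted p = 0.0165). In Diff cells TYMS was at 14.4 to 18.7 TPM and missed the test (adjusted p = 0.535). Exon bases of RRM2 (20.23%) and of TYMS (46.56%) are shared with or lie opposite other genes.

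MYBL2 and FOXM1 are transcription factors of the mitotic genes. MYBL2 was at 125, 111 and 121 TPM in U87, 63.4, 67.3 and 68.7 in Diff cells and 39.2, 46.4 and 38.7 in GSCs. It was lower in every library of both irradiated lines, with log2 differences from U87 of -1.50 ± 0.08 in GSCs (adjusted p = 1.16e-06) and -0.83 ± 0.08 in Diff cells (adjusted p = 5.73e-05). FOXM1 was at 175, 168 and 182 TPM in U87, 149, 159 and 161 in Diff cells and 88.6, 95.3 and 93.7 in GSCs. Its log2 difference from U87 was -0.91 ± 0.05 in GSCs (adjusted p = 1.97e-06) and -0.16 ± 0.05 in Diff cells (adjusted p = 0.0384). The call in Diff cells was lost under 10 of the 18 alternative settings. It was lost when any of the 3 Diff libraries, U87 replicate 1 or U87 replicate 3 was left out (adjusted p of 0.0596 to 0.132), and under 5 other settings (adjusted p of 0.0507 to 0.207), where the log2 difference came down to -0.11 by median-ratio scaling.

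The cyclins of G2 and mitosis, CCNA2, CCNB1 and CCNB2, activate the kinase CDK1. CCNB1, encoding cyclin B1, was at 276, 269 and 284 TPM in U87, 183, 179 and 187 in Diff cells and 67.0, 67.4 and 83.9 in GSCs. GSCs were 3.8-fold below U87 on mean TPM, at a log2 difference of -1.92 ± 0.08 (adjusted p = 3.65e-07), and Diff cells at -0.59 ± 0.08 (adjusted p = 0.000527). CCNB2 was at 81.8, 77.1 and 77.1 TPM in U87, 52.3, 53.7 and 58.4 in Diff cells and 23.8, 26 and 33.7 in GSCs. CCNA2, encoding cyclin A2, was at 106, 102 and 103 TPM in U87, 75.6, 71.1 and 75.0 in Diff cells and 41.7, 40.7 and 49.5 in GSCs. Both followed the same order without overlap, at -1.48 ± 0.11 and -1.22 ± 0.07 in GSCs on the log2 scale (adjusted p = 9.7e-06 and 2.4e-06). CDK1 was at 31.0, 25.9 and 29.3 TPM in U87, 23.3, 23.6 and 25.5 in Diff cells and 22.2, 20.1 and 28.5 in GSCs. It was the only tested mitosis gene that did not pass in GSCs against U87, at -0.28 ± 0.12 (adjusted p = 0.0887), but without GSCs replicate 3 it passed (-0.42, adjusted p = 0.00532). The ratio of CCNB1 to CDK1 TPM was 8.92, 10.4 and 9.70 in U87, 7.84, 7.57 and 7.35 in Diff cells and 3.02, 3.36 and 2.94 in GSCs.

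**Figure D4:**
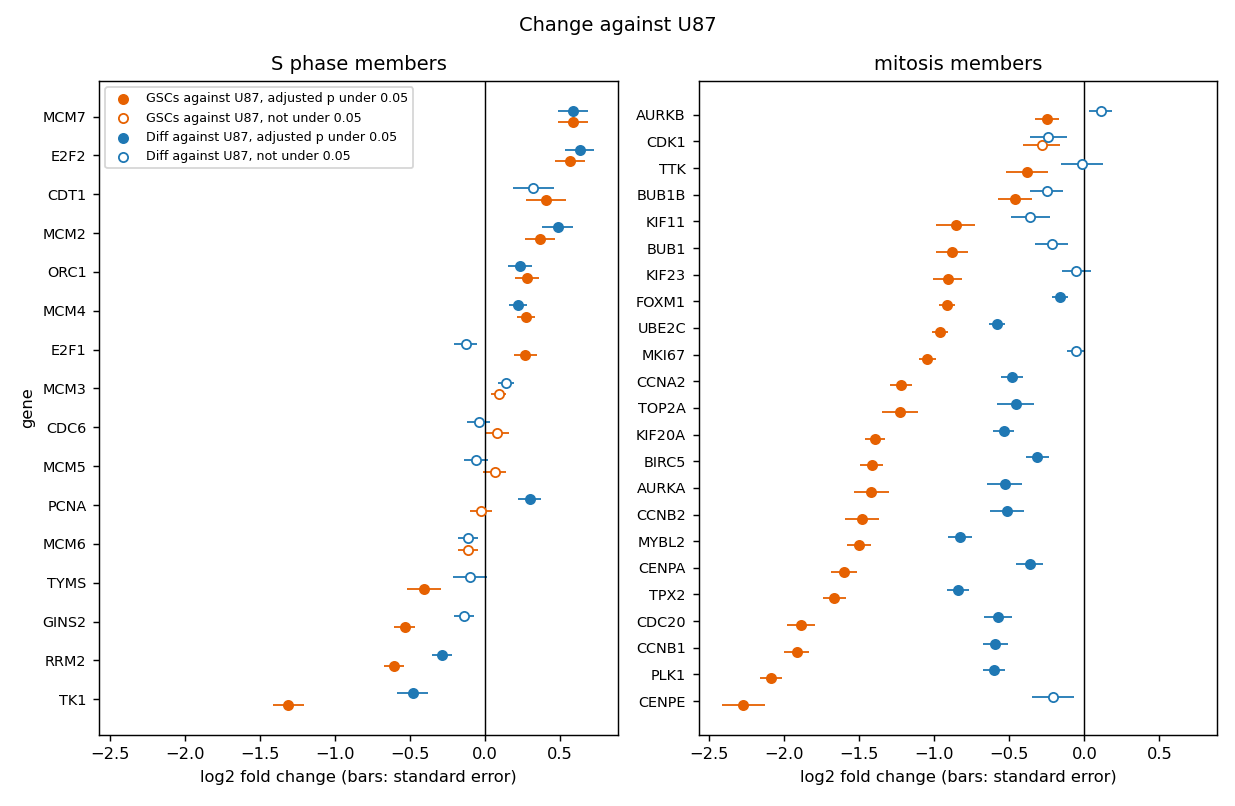
Log2 differences of log2(TPM + 1) from U87 in GSCs (orange) and Diff cells (blue) for the tested S phase genes (left) and mitosis genes (right), with bars of 1 SE and filled points at an adjusted p under 0.05. Mitosis genes reach -2.27 in GSCs and -0.84 in Diff cells, and S phase genes lie on both sides of 0.

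PLK1 and the aurora kinases drive entry into and passage through mitosis. PLK1, whose promoter is printed above, was at 127, 115 and 132 TPM in U87, 76.8, 84.0 and 83.9 in Diff cells and 26.3, 29.9 and 29.3 in GSCs. The lines did not overlap, and GSCs were 4.37-fold below U87 on mean TPM. Its log2 difference was -2.09 ± 0.07 in GSCs (adjusted p = 1.11e-07), -0.60 ± 0.07 in Diff cells (adjusted p = 0.000219) and 1.48 ± 0.07 in Diff cells against GSCs (adjusted p = 2.79e-06). AURKA, the kinase of the spindle poles, was at 106, 92.2 and 110.1 TPM in U87, 67.2, 67.0 and 77.7 in Diff cells and 33.2, 35.7 and 44.7 in GSCs. TPX2, which activates AURKA on spindle microtubules, was at 371, 335 and 380.2 TPM in U87, 200.2, 193 and 211 in Diff cells and 109.8, 106 and 125 in GSCs. Both genes fell in GSCs, with log2 differences of -1.42 ± 0.12 and -1.67 ± 0.08 (adjusted p = 1.56e-05 and 4.91e-07). The 24 tested neighbours of TPX2 on chromosome 20 had median log2 differences of -0.38 in GSCs and -0.36 in Diff cells, where TPX2 was at -0.84.

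AURKB, the kinase of the chromosomal passenger complex, departed from the order of its class. It was at 66.1, 64.7 and 68.5 TPM in U87, 63.9, 73.6 and 78.2 in Diff cells and 56.7, 58.0 and 52.4 in GSCs. Diff cells overlapped with U87, and only GSCs stood apart, at -0.25 ± 0.08 (adjusted p = 0.0265). BIRC5, survivin, a partner of AURKB in that complex, did keep the order. Its TPM was 56.6, 50.7 and 59.2 in U87, 41.7, 43.8 and 47.8 in Diff cells and 20.1, 21.1 and 19.1 in GSCs, a log2 difference of -1.42 ± 0.08 in GSCs (adjusted p = 1.4e-06).

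CDC20 and UBE2C act in the anaphase-promoting complex pathway, which ends mitosis by marking cyclin B and securin for destruction. CDC20 was at 270.5, 223 and 256 TPM in U87, 153, 175 and 173 in Diff cells and 67.0, 72.5 and 60.5 in GSCs. GSCs were 3.75-fold below U87, at -1.89 ± 0.09 on the log2 scale (adjusted p = 7.75e-07). UBE2C, the most abundant mitosis gene of the list, was at 455, 437 and 469 TPM in U87, 301, 294 and 311 in Diff cells and 242, 234 and 219 in GSCs, a log2 difference of -0.97 ± 0.05 in GSCs (adjusted p = 1.43e-06). In Diff cells its log2 difference from U87 was -0.58 ± 0.05 (adjusted p = 4.02e-05). The 24 tested neighbours of UBE2C on chromosome 20 had median log2 differences from U87 of -0.38 in GSCs and -0.48 in Diff cells. A shift shared with that region was not tested. The spindle checkpoint kinases that hold CDC20 in check had smaller log2 differences. BUB1 was at 44.8 to 50.1 TPM in U87, 38.4 to 43.1 in Diff cells and 22.7 to 30.5 in GSCs, and BUB1B at 41.4 to 49.1, 36.1 to 39.1 and 28.6 to 39.1. TTK was at 13.1 to 14.4 TPM in U87, 12.6 to 14.3 in Diff cells and 8.80 to 13.3 in GSCs. In GSCs the log2 differences were -0.88 ± 0.11, -0.46 ± 0.11 and -0.38 ± 0.14 (adjusted p = 0.000171, 0.00851 and 0.0483), and none of these 3 kinases passed in Diff cells against U87 (adjusted p of 0.146, 0.111 and 0.941). Without GSCs replicate 3, BUB1 and BUB1B passed there as lower (adjusted p = 0.026 and 0.0217). The call of TTK in GSCs was lost under 11 of the 18 alternative settings (adjusted p of 0.0587 to 0.145), and its libraries overlapped with U87.

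The centromere genes included the gene with the largest log2 difference of the 48 between Diff cells and GSCs. CENPE, the kinesin that moves chromosomes to the spindle equator, was at 27.5, 20.4 and 28.4 TPM in U87, 21.8, 20.5 and 22.6 in Diff cells and 3.67, 4.54 and 5.10 in GSCs. Diff cells lay within the range of U87, and GSCs were 5.72-fold below U87. The log2 difference was -2.27 ± 0.14 in GSCs (adjusted p = 2.76e-06), -0.21 ± 0.14 in Diff cells (adjusted p = 0.281, interval of 2 SE from -0.49 to 0.07) and 2.06 ± 0.14 between Diff cells and GSCs (adjusted p = 1.51e-05). CENPA, the histone H3 variant that marks the centromere, was at 50, 45.6 and 53.9 TPM in U87, 36.3, 36.7 and 42.5 in Diff cells and 14.8, 15.6 and 16.7 in GSCs, at -1.60 ± 0.09 in GSCs (adjusted p = 1.35e-06) on the log2 scale.

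The spindle kinesins fell in GSCs. KIF20A, a kinesin of the central spindle, was at 94.1, 91.2 and 101 TPM in U87, 65.6, 64.4 and 66.3 in Diff cells and 34.3, 33.7 and 39.2 in GSCs. Its log2 difference was -1.40 ± 0.07 in GSCs against U87 (adjusted p = 7.26e-07). KIF23, its neighbour in the central spindle, was at 34.4 to 36.8 TPM in U87, 31.7 to 36.7 in Diff cells and 16.7 to 21.5 in GSCs, and KIF11, which pushes the spindle poles apart, at 56.5 to 58.3, 42.0 to 46.0 and 26.3 to 40. Their log2 differences in GSCs were -0.91 ± 0.10 and -0.86 ± 0.13 (adjusted p = 7.04e-05 and 0.000679). In GSCs replicate 3, KIF11 was well above the other 2 libraries of the line.

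MKI67, the gene of the Ki-67 antigen, did not separate Diff cells from U87. It was at 250.01, 233 and 249.9 TPM in U87, 236, 229.9 and 238 in Diff cells and 109.6, 123 and 121 in GSCs. U87 and Diff cells overlapped at about the same level (log2 difference -0.06 ± 0.06, adjusted p = 0.464, interval of 2 SE from -0.17 to 0.05), while GSCs were 2.08-fold below U87 (-1.05 ± 0.06, adjusted p = 1.16e-06). TOP2A, topoisomerase II alpha, the other common proliferation marker, was at 167, 147 and 170.2 TPM in U87, 121, 111 and 119 in Diff cells and 60.6, 61.8 and 84.4 in GSCs. It fell in both, at -0.46 ± 0.12 in Diff cells (adjusted p = 0.0164) and -1.23 ± 0.12 in GSCs (adjusted p = 4.78e-05). NUSAP1, a spindle protein, was at 0.277 to 1.40 TPM in all libraries and was not tested. An annotated gene on the same strand, AC087721.2, covers 62.16% of its exon bases, so its count is uncertain.

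The log2 differences were also set beside the promoter elements, as a description. The median log2 difference in GSCs against U87 was -1.14 over the 10 tested mitosis genes with CHR and -1.40 over the 7 without. The 11 S phase genes with an E2F element had a median of 0.09 in GSCs and 0.14 in Diff cells against U87. They ranged from -0.54 to 0.58 in GSCs and from -0.14 to 0.63 in Diff cells. The 3 without one, ORC1, RRM2 and TK1, had medians of -0.61 and -0.29. These ranged from -1.31 to 0.28 and from -0.48 to 0.23, overlapping with the 11. RRM2 and TK1 fell in both lines, whereas ORC1 rose in both.

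Further genes of the same phases, from lists of 20, 58 and 77 genes that hold none of the 52, were examined beside them. Chromosomal neighbours were taken only for the 52 genes, so a shift shared with a whole region was not tested for these further genes. Of all genes tested, GSCs were above U87 in 25.3% and below in 23.3%, Diff cells above U87 in 18.9% and below in 20.5%, and Diff cells above GSCs in 15.0% and below in 19.8%. Of 76 tested further mitosis genes, 58 fell and 1 rose in GSCs against U87 (median log2 difference -0.78), 33 fell and 2 rose in Diff cells against U87 (-0.25), and Diff cells were above GSCs in 57 and below in 2 (0.52). CENPF, a kinetochore protein, was at 76.7, 69.1 and 76.9 TPM in U87, 58.9, 57.8 and 56.9 in Diff cells and 11.7, 12.5 and 14.3 in GSCs. The lines did not overlap, and its log2 difference was -2.44 ± 0.08 in GSCs against U87 (adjusted p = 6.49e-08), -0.35 ± 0.08 in Diff cells against U87 (adjusted p = 0.00607) and 2.09 ± 0.08 in Diff cells against GSCs (adjusted p = 7.44e-07). The next in size in GSCs against U87 were CDCA2, a subunit that targets phosphatase to chromosomes, at -2.11 ± 0.07, and ASPM, a spindle pole protein, at -2.09 ± 0.10 (adjusted p = 7.11e-08 and 5.91e-07). In Diff cells against U87 the largest were CDCA2 (-1.71 ± 0.07), the condensin subunit gene NCAPG (-1.34 ± 0.12) and the kinase gene PBK (-1.29 ± 0.14), with adjusted p of 3.64e-07, 3.06e-05 and 0.000116. After CENPF, ASPM (1.33 ± 0.10) and the spindle gene DLGAP5 (1.26 ± 0.13) led in Diff cells against GSCs (adjusted p = 2.38e-05 and 0.000126).

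Of 57 tested further S phase genes, 20 rose and 8 fell in GSCs against U87, 18 rose and 6 fell in Diff cells against U87, and Diff cells were above GSCs in 7 and below in 6, with medians of 0.13, 0.12 and -0.03. The shares that fell, and both shares between Diff cells and GSCs, were below those of all genes. Among the largest differences in GSCs against U87 were those in the checkpoint kinase gene CHEK1 (1.05 ± 0.13) and in WDHD1, a replisome adaptor (0.85 ± 0.11). Their adjusted p were 0.000194 and 0.000262. CHEK1 was at 8.26 to 10 TPM in U87, 12.3 to 15.6 in Diff cells and 17.4 to 23.5 in GSCs, the reverse of the mitosis order and without overlap. In Diff cells against U87 the largest were DUT, dUTPase, which keeps uracil out of DNA (-1.11 ± 0.08), DBF4, the activator of the CDC7 kinase (0.86 ± 0.12), and RPA3, a subunit of the single-strand binding complex (0.64 ± 0.09), at adjusted p of 7.84e-06, 0.000591 and 0.000448. Between Diff cells and GSCs they included UHRF1, a maintenance methylation factor (0.66 ± 0.07), and POLE2, a polymerase epsilon subunit (-0.55 ± 0.13), at adjusted p of 0.00016 and 0.0109.

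Of 17 tested further G1 genes, 8 rose and 4 fell in GSCs against U87, 8 rose and 2 fell in Diff cells against U87, and Diff cells were above GSCs in 2 and below in 4. The share that fell in GSCs was about that of all genes. CDKN1A, encoding p21, the inhibitor induced by p53, was at 163, 146 and 163 TPM in U87, 233, 235 and 231 in Diff cells and 237, 211 and 186 in GSCs. Both irradiated lines were above U87 in every library, at 0.57 ± 0.09 in Diff cells (adjusted p = 0.000832) and 0.42 ± 0.09 in GSCs (adjusted p = 0.00338). CDKN2D, encoding p19, was at 19.7, 12.6 and 20.1 TPM in U87, 5.56, 6.81 and 4.31 in Diff cells and 4.44, 6.78 and 4.53 in GSCs. It fell in both, at -1.49 ± 0.22 and -1.56 ± 0.22 (adjusted p = 0.000812 and 0.000466). CDKN2A and CDKN2B, which encode p16 and p15, never exceeded 0.176 and 0.0341 TPM. The RB relatives went opposite ways. RBL1, encoding p107, was at 36.1 to 37.6 TPM in U87, 21.1 to 24.6 in Diff cells and 21.0 to 27.3 in GSCs, while RBL2, encoding p130 of the DREAM complex, was at 20.9 to 22.8, 25.8 to 27.8 and 33.5 to 40.5. RBL2 rose by 0.69 ± 0.08 in GSCs and 0.27 ± 0.08 in Diff cells (adjusted p = 0.000121 and 0.0255), and RBL1 fell in both, with log2 differences of -0.66 ± 0.10 and -0.65 ± 0.10 (adjusted p = 0.000795 and 0.00116). LIN9, a MuvB subunit, was at 5.93 to 7.24 TPM in U87 and 2.09 to 3.52 in GSCs (-0.93 ± 0.18, adjusted p = 0.00231). MYC, an activator of G1 progression, was at 64.7 to 70.1 TPM in U87, 91.4 to 100.03 in Diff cells and 109.7 to 143 in GSCs, with log2 differences of 0.50 ± 0.10 and 0.94 ± 0.10 (adjusted p = 0.00327 and 5.96e-05). Between Diff cells and GSCs the largest were RBBP4, a chaperone of histones in MuvB, MYC and RBL2, at -0.45 ± 0.11, -0.44 ± 0.10 and -0.42 ± 0.08 (adjusted p = 0.013, 0.00794 and 0.00375).

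**Figure D5:**
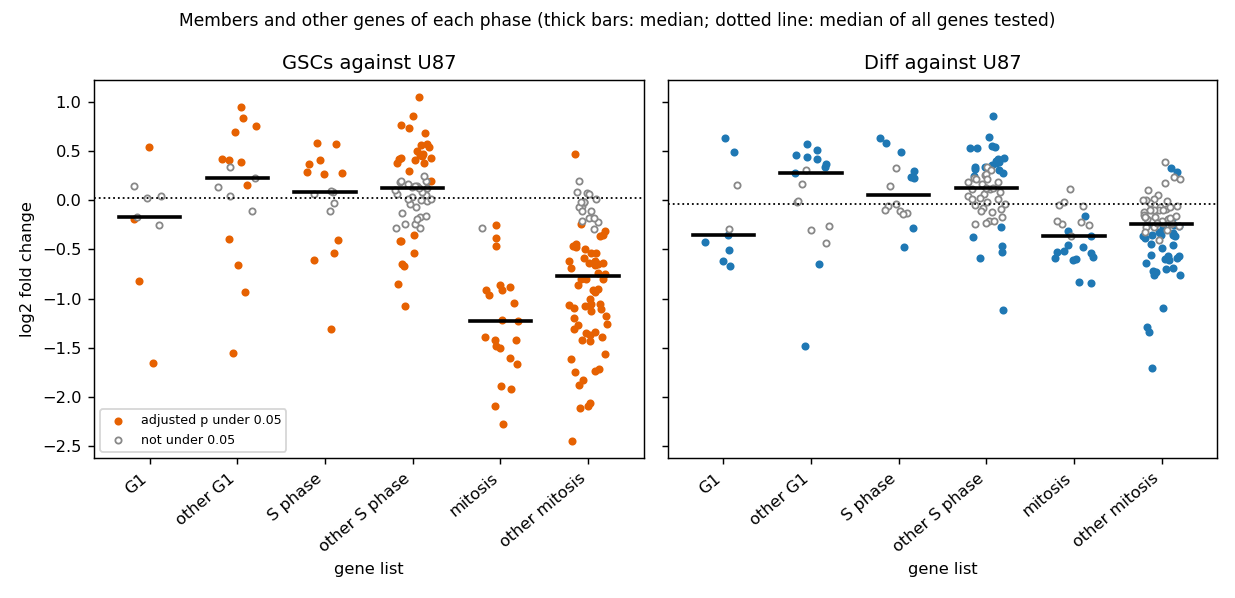
Log2 differences of log2(TPM + 1) of both irradiated lines from U87, each point a tested gene of the 3 classes or of the further genes (other G1, other S phase, other mitosis), filled at an adjusted p under 0.05. Thick bars mark medians and the dotted line the median of all genes tested. The further mitosis genes center at -0.78 for GSCs and -0.25 for Diff cells, and the further S phase genes at 0.13 and 0.12.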

How the data were processed

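The data are RNA-seq of 9 libraries, 3 for each of U87, GSCs and Diff cells. The deposited values are log2(TPM + 1) (values from 0 to 16.6, each library summing to 1000000 TPM once transformed back). The submitters' processing notes name GRCh38, FastQC 0.11.9, Trimmomatic 0.39, HISAT2 2.2.1, featureCounts 2.0.5 and R 4.2.0, whereas the annotation and the strand setting of the counting are not given in the sources used here. Depth is not kept in TPM, so no counting interval was derived, and the number of libraries limits the precision.

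Genes with a mean TPM over 1 (22909 of 60606) entered limma 3.58.1 (R 4.3.3, functions lmFit and eBayes, with trend) on log2(TPM + 1) in a common model of the 3 lines, with Benjamini-Hochberg adjustment per comparison. Errors of log2 differences are standard errors of that model, and differences of low genes are understated by the pseudocount of 1. A test for counts had been the alternative for raw counts and was not run. The script was tested on simulated data. Replicate numbers were not used for pairing, since same-numbered libraries of different lines did not deviate together.

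The 52 genes and all lists were chosen with earlier results of these data known. Named were the 52 genes, CDKN1A, CDKN2A, CDKN2B, CDKN2D, RBL1, RBL2 and, per comparison and further list, the 3 genes with the largest log2 difference past the test. A gene that this rule names is not reported here. Marker genes named served to check the labels. Summed TPM and ratios were formed per library. Promoters came from RefSeq (GRCh38.p14), and gene overlaps and neighbours (12 tested genes on each side) from GENCODE on GRCh38. Of the 52 genes, 4 share over 10% of exon bases with another gene on the same strand, 8 lie over 10% opposite another gene, and 12 have pseudogenes named after them, so their values are uncertain to that extent. Plots used matplotlib 3.10.9, and tables pandas 2.3.3 and numpy 2.4.6 under Python 3.11.15.

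Alternatives covered the libraries in the fit, a replicate block, a pseudocount of 0.1, no filter or a mean TPM over 5, quantile normalization, TPM rescaled without mitochondrial genes and RN7SL1, median-ratio scaling, limma without a trend, an adjusted p under 0.01 and leaving out single libraries.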

Additional observations from a re-analysis of the deposited data

Results flagged for a closer look

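Against U87, 4 of the genes went one way in Diff cells and the other in GSCs on the log2 scale, and the difference between Diff cells and GSCs itself passed the test of limma. For CCND1 that difference was -0.82 (adjusted p = 2.34e-05) and for E2F1 -0.40 (adjusted p = 0.00432), both lower in Diff cells. For AURKB it was 0.36 (adjusted p = 0.00759) and for PCNA 0.32 (adjusted p = 0.0104), both higher in Diff cells. Each was lower or higher in 3 of 3 Diff libraries than in every GSCs library. Only CCND1 in Diff cells, PCNA in Diff cells, E2F1 in GSCs and AURKB in GSCs passed against U87 as well.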

How the results depend on the processing

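Of 97 differences of single genes past the test, 81 stayed past it in the same direction under all 18 alternatives tried for each gene, and 0 changed sign. The other 16 were lost when some library was left out, at adjusted p of 0.0502 to 0.151, and each of the 9 libraries cost at least 1 call. Of these, 14 (not CCND3 in Diff cells, nor ORC1 in GSCs) were also lost under a setting that kept all libraries or left out the third line, at adjusted p of 0.0504 to 0.207. They were CCND3, MCM4, ORC1, FOXM1 and TOP2A in Diff cells against U87, AURKB, CCNE2, CDK2, CDT1, E2F1, MCM2, ORC1, TTK and TYMS in GSCs against U87, and CDK2 and KIF11 between Diff cells and GSCs. In the other direction, leaving out GSCs replicate 3 brought CDK1, CDKN1B, MCM6 and RB1 past the test in GSCs against U87, RB1, CDT1, MCM3, CDK1, BUB1, BUB1B and KIF11 in Diff cells against U87, and BUB1B and TTK between Diff cells and GSCs.

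In Diff cells against U87, 5 rose and 16 fell at an adjusted p under 0.01, 26 fell with only those lines in the fit, and 10 rose and 26 fell without GSCs replicate 3. The calls over all genes moved as well. In that comparison 3588 to 4808 of all genes rose and 3719 to 5232 fell with a library left out, against 4339 and 4685 with all libraries. In GSCs against U87, 5 rose with no filter on low values, 3 at an adjusted p under 0.01, and 4 (without U87 replicate 3) to 8 with a library left out. Of all genes, 5031 to 5638 rose in GSCs with a library left out, against 5795 with all libraries. With no filter, 1 gene, CDKN1C, passed the fold limit upwards in GSCs against U87 and 1, again CDKN1C, downwards in Diff cells against GSCs. Under the replicate block 7 genes rose and 21 fell in Diff cells against U87, 8 and 29 did in GSCs against U87, and 28 and 3 were above and below between Diff cells and GSCs. ORC1 (adjusted p = 0.0903) and FOXM1 (adjusted p = 0.0507) were lost and KIF11 (adjusted p = 0.0483) gained in Diff cells against U87. Same-numbered libraries of different lines had deviations that correlated at -0.042 to 0.049, against -0.058 to 0.054 for other numbers. Whether same-numbered libraries shared a culture or batch cannot be told from this.

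The median of the G1 genes was -0.18 in Diff cells and 0.024 in GSCs against U87 with no filter, and 0.17 between Diff cells and GSCs at a mean TPM over 5. With a library left out it ran from -0.23 to -0.059 in GSCs against U87 and from -0.24 (without GSCs replicate 2) to 0.011 (without GSCs replicate 3) between Diff cells and GSCs. The median of the S phase genes was 0.096 rescaled and 0.10 by median-ratio scaling in Diff cells against U87, 0.090 and 0.092 between Diff cells and GSCs, and 0.0068 to 0.080 there with a library left out. That of the mitosis genes in GSCs against U87 ran from -1.38 (without GSCs replicate 3) to -1.17. Rescaled without mitochondrial genes and RN7SL1, the summed TPM in U87, GSCs and Diff cells was 907, 915 and 706 for G1, 1790.3, 1772 and 1951 for S phase and 4704, 1907 and 3509.5 for mitosis. The G1 sum of Diff cells was 428 at a mean TPM over 5, 441 by quantile normalization and 438 by median-ratio scaling.

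Over all genes, the split between Diff cells and GSCs depended on scaling, with 3447 above and 4535 below as deposited, 4391 and 3714 by quantile normalization, 4061 and 3914 rescaled and 4198 and 4040 by median-ratio scaling, while 28, 30, 30 and 31 of the 48 genes were above and 3, 2, 2 and 2 below.

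Single genes that changed sign were all short of the test. In Diff cells against U87 these were CDC6 (0.0035 rescaled, 0.0090 median-ratio), TTK (0.011 quantile, 0.028 rescaled, 0.032 median-ratio, -0.056 to 0.033 with a library left out), KIF23 (-0.098 to 0.0046) and MKI67 (0.020 quantile). In GSCs against U87 they were CDK4 (-0.0060 to 0.088 with a library left out), CCNE1 (-0.045 quantile, -0.074 to 0.080), MCM5 (-0.022 to 0.13) and PCNA (0.012 quantile, -0.090 to 0.024). Between Diff cells and GSCs they were ORC1 (0.014 rescaled, 0.016 median-ratio, -0.082 to 0.013 with a library left out), MCM4 (0.0092 rescaled, 0.012 median-ratio), RB1 (-0.24 to 0.011), E2F2 (-0.0098 to 0.16), CDT1 (-0.22 to 0.034), MCM6 (-0.045 to 0.074), MCM7 (-0.11 to 0.085) and CDK1 (-0.060 to 0.18). The causes were not tested. DESeq2 and edgeR were not run, since the table holds no counts.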

Other observations

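CCND2P1, a pseudogene of CCND2, was at 0 in the 3 U87 libraries, at 4.65, 2.74 and 4.31 TPM in Diff cells and at 6.18, 4.58 and 4.79 TPM in GSCs, while CCND2 itself stayed at or under 0.102 TPM. It was chosen after its values were seen, and no fold is given against libraries listed at 0.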
